A study of Saccharomyces cerevisiae with 6 samples.

Results

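Chromosome XII carries the ribosomal DNA (rDNA) of budding yeast, and its folding around that array was described from Hi-C maps of pairs of 10 kb bins. All pairs of chromosome XII bins with each other were taken, and bins with no value were left out. Of 108 bins on XII, 105 held a value in each map, out of 1195 nuclear bins with a value. A further 9 bins had values with under 0.5 of the bins on other chromosomes, as the mean of both maps, and were set aside. This left 96 bins and 4560 of the 5460 bin pairs with a value. The bins fall into the left arm (up to the centromere, 12 bins kept of 15), the stretch from the centromere to the rDNA (up to 450 kb, 29 of 30), the rDNA itself (450 to 490 kb, 1 of 4) and the stretch beyond the rDNA (from 490 kb to the end, 54 of 59).

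Hi-C reads out which pieces of chromosomes lay close enough in fixed nuclei to be ligated to each other. Both maps come from the MATa strain yMD291 under methionine depletion, grown in medium without methionine, and are replicates 1 and 2 of a single group. All strains of the study descend from W303. The marker alleles of yMD291 are his3-11,15 and a mutant leu2 allele for histidine and leucine, trp1-1 and ura3-1 for tryptophan and uracil, and ade2-1 for adenine. It further has can1-100 and bar1, and tor1-1 together with fpr::NAT. LacI and tetR are expressed from the REV1 promoter at HIS3 (HIS3::REV1pr-tetR-mCherry-REV1pr-LacI-GFP) and, without fluorescent tags, at ADE2 (ADE2::REV1pr-LacI-REV1pr-tetR). Chromosome XV holds LacO repeats at 497047 and TetO repeats at 834487. Replicate 1 holds 3760159 contacts, of which 229236 lie within XII, and replicate 2 holds 3518507, of which 213486 do. With 1 group of 2 maps no comparison between conditions exists and no test was made, so each value is given per map or as mean ± SD over both, beside the number of contacts. Single bin pairs were noisy: between the maps Pearson's r was 0.553 and Spearman's rho 0.580 over all 4560 XII pairs, and over the 1566 pairs across the rDNA r was 0.178 and rho 0.199. The pairs share bins and libraries, and these correlations only describe how far single pairs repeat.

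In yeast the centromeres are gathered at the spindle pole body and the chromosome ends lie along the nuclear envelope, an arrangement known as the Rabl configuration. The rDNA is a tandem array of one repeat unit, and its transcription forms the nucleolus, a crescent at the side of the nucleus away from the spindle pole body. Each unit holds RDN37, the gene of the precursor of the large ribosomal RNAs, and RDN5, the gene of the 5S RNA, on the opposite strand. The reference (S288C, build R64, the same coordinates as sacCer3) writes out only a few copies. RDN37-1 (chrXII:451575-458432) and RDN37-2 (chrXII:460712-467569) start 9137 bases apart and are identical over their 6858 bases. Of the 6 RDN5 genes, RDN5-1 and RDN5-6 are 121 bases long and identical, and the other 4 are 119 bases long with 1 substitution each. The ASP3-1 to ASP3-4 genes, which encode asparaginase II, lie between the last RDN5 copies. Distances across the rDNA below are those of the reference, and the number of rDNA copies in yMD291 was not measured here.

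The landmarks of the chromosome are shown because the contacts described below turn on them. CEN12 (chrXII:150828-150947, minus strand) lies where contact with the stretch beyond the rDNA was lowest, and its CDEI and CDEIII elements are in capitals. RDN5-1 (chrXII:459676-459796, plus strand) is an example of the repeated sequence, with its DpnII site, where the assay cuts, in capitals. The 120 bases after RDN5-6 (chrXII:489470-489589, plus strand) are where the reference array ends on the side of the long stretch, and they overlap YLR162W.
CEN12: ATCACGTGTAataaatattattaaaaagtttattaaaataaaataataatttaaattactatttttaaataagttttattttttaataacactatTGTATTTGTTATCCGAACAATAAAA
RDN5-1: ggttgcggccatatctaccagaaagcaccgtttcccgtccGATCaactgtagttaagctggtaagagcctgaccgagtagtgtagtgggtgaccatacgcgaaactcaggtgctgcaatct
right flank of RDN5-6: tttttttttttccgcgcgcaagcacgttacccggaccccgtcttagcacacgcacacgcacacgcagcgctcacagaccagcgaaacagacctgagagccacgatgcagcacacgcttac
CEN12 and this flank hold no DpnII site (GATC, the same on both strands). Chromosome XII has 3149 such sites, 28.8% of its windows of 120 bases hold one, and each RDN37 copy has 21.

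Contacts across the rDNA were fewer than at the same reference distances on other chromosomes, and contacts within each side were more frequent. O/E is the observed over the expected signal, and the expectation is the mean balanced signal at the same distance on the 15 other nuclear chromosomes. The 1566 pairs that join a bin between the centromere and the rDNA to a bin beyond it had an O/E of 0.579 and 0.582 in the maps. They held 5547 contacts where 10376 were expected from distance and bin factors, a ratio of 0.535 with an exact Poisson 95% interval of 0.521 to 0.549. Such intervals cover counting error only.
Pairs within the stretch from the centromere to the rDNA had an O/E of 1.274 and 1.273 (406 pairs), and pairs within the stretch beyond it 1.351 and 1.383 (1431 pairs). In contacts the excess was smaller. The first held 64248 where 61193 were expected, a ratio of 1.05, and the second 134179 where 120271 were, a ratio of 1.12. The O/E weighs every pair alike, whereas near pairs hold most of the contacts. Pairs within the left arm, at 0.977 and 0.995 (66 pairs), were near the level of other chromosomes. The lowest level of all segment pairs was that of the left arm with the stretch beyond the rDNA, at 0.264 and 0.268, with 664 contacts where 2713 were expected (648 pairs). It was 0.436 with an expectation from same-arm pairs of other chromosomes, and the median pair was at 0. The map of chromosome XII shows these levels as blocks with sharp edges at the rDNA.

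**Figure D1:**
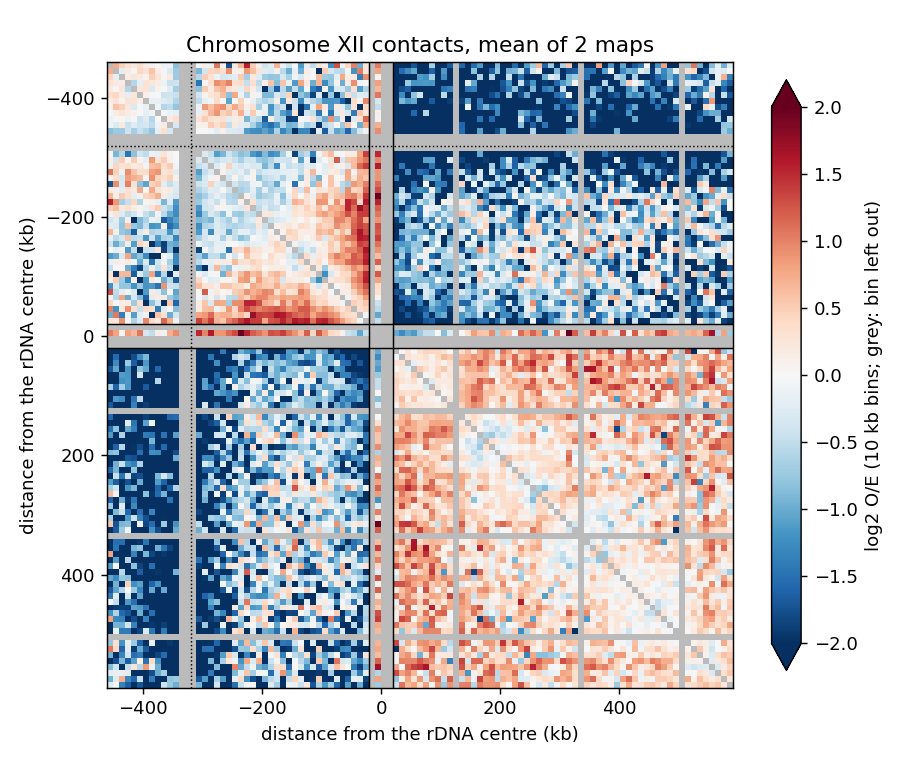
Log2 O/E of every kept pair of chromosome XII bins, mean of both maps, as colour, with both axes in kb from the rDNA centre, negative towards the left end. Solid lines bound the rDNA bins, the dotted line is CEN12 and grey bins were left out; the off-diagonal blocks that join the stretch beyond the rDNA to the other segments are blue, deepest beside CEN12, and the blocks within each side are mostly white to red, with blue pairs near CEN12.

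Set against same-side pairs at equal reference distance, the deficit across the rDNA was deepest for the nearest pairs. Any rDNA copies that the reference leaves out would add to every distance across the array. How much of this gradient, and of the slopes and equivalent distances below, comes from that was not tested. Over the 52 distances from 50 to 560 kb that both kinds of pair share, the O/E across the rDNA averaged 0.538 ± 0.00288 and the O/E on one side 1.46 ± 0.0372 (SD, n = 2). The ratio was 0.374 and 0.364 in the maps. At 50 to 90 kb the ratio was 0.118 ± 0.0148, and at 100 to 140 kb it was 0.280 ± 0.0121 (SD, n = 2). It was 0.361 at 150 to 190 kb, 0.377 at 200 to 290 kb, 0.405 at 300 to 390 kb, 0.410 at 400 to 490 kb and 0.466 at 500 to 590 kb. Neighbouring ratios from 150 to 490 kb differed by less than the SD of at least 1 of them, whereas the steps up to 150 kb were larger than the spread between maps.

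The O/E itself followed the same course. Pairs across the rDNA had 0.190 and 0.148 at 50 to 90 kb, where 126 contacts were found and 784.2 expected (15 pairs). At 100 to 140 kb they had 0.385 and 0.388 (40 pairs), and at 150 to 190 kb 0.523 and 0.493 (60 pairs). From 300 to 590 kb the means stayed between 0.629 and 0.649, and past 600 kb the mean was 0.531 ± 0.0168 (SD, n = 2, 437 pairs). Same-arm pairs of the other chromosomes, by comparison, had 0.992 at 50 to 90 kb, 0.920 at 300 to 390 kb and 0.754 at 600 to 920 kb, so they too fell below 1 at long range.
Same-side pairs of XII ran the other way. Within the stretch from the centromere to the rDNA the O/E was 0.976 at 10 kb, 1.01 at 20 to 40 kb, 1.23 at 50 to 90 kb and 1.51 at 200 to 290 kb. Within the stretch beyond the rDNA it was 1.05 at 10 kb, 1.09 at 20 to 40 kb, 1.25 at 50 to 90 kb, 1.43 at 200 to 290 kb and 1.61 at 300 to 390 kb. Between the centromere and the rDNA the excess thus appeared only from 50 kb on. Beyond the rDNA a small excess was present from 10 kb and was larger at long distances. Iterative balancing gives every bin the same total, so a bin with little signal on one set of bins has more on the rest. How much of the same-side excess comes from that was not tested. Over all distances and without balancing, the O/E was 1.19 between the centromere and the rDNA and 1.28 beyond it. It was 1.61 and 1.89 with a balance from contacts between chromosomes only, and 1.03 and 1.11 as summed signal over summed expectation.

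**Figure D2:**
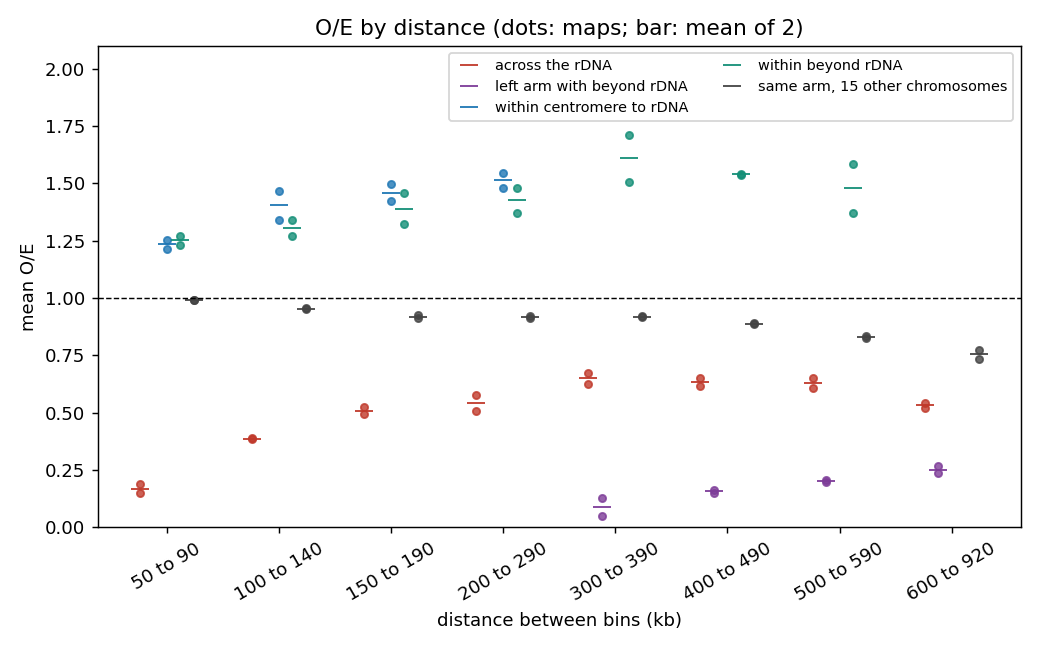
Mean O/E (vertical axis) by band of distance between bins in kb (horizontal axis), for pairs across the rDNA, left arm with beyond the rDNA, within each side, and same-arm pairs of the other 15 chromosomes; dots are the maps and bars their mean. Pairs across the rDNA lie at 0.169 in the nearest band and at 0.649 at 300 to 390 kb, below the same-arm pairs of other chromosomes in every band, while pairs on one side lie above 1 in each band plotted for them.

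Counts of single pairs showed the same contrast. At 50 to 190 kb, 61 of 115 pairs across the rDNA (53%) had an O/E under 0.5 in both maps, against 5.36% of same-arm pairs of other chromosomes at those distances. Within the stretch between the centromere and the rDNA 4 of 255 pairs did, and within the stretch beyond it 1 of 606. At 200 to 920 kb, 385 of 1451 pairs across the rDNA (26.5%) were under 0.5 in both maps, against 15.8% on other chromosomes, where expected contacts per pair are few and low values more common. Distances within a range were not matched. Of the pairs across the rDNA 437 of 1451 lay at 600 to 920 kb, against 989 of 10075 same-arm pairs of other chromosomes. How much of these contrasts, and of those below, comes from that mix was not tested.
An O/E over 1 in both maps was found for 1 of 115 pairs across the rDNA at 50 to 190 kb (0.87%), against 27.4% on other chromosomes. Between the centromere and the rDNA it was found for 132 of 255 pairs (51.8%) and beyond the rDNA for 375 of 606 (61.9%). At 200 to 920 kb it was found for 82 of 1451 pairs across the rDNA (5.65%), against 19.8% on other chromosomes.

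Contact across the borders of the array was low even between the nearest bins. The bin of ACS2, which encodes an acetyl-CoA synthetase, is the last before the rDNA (440001 to 450000). It had 4 contacts in each map with the first bin after the rDNA (490001 to 500000), 50 kb away, where 89.4 were expected over both. With the next bin, 500001 to 510000, it had 3 and 4 contacts against 81.5 expected. Over the 30 pairs of the 5 bins before with the 6 bins after the array, 255 contacts were found where 1177 were expected, a ratio of 0.217 (95% interval 0.191 to 0.245). The ACS2 bin was not low in contact in general, with an O/E of 2.35 and 2.24 with its own side.

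Signal across the rDNA hardly fell with reference distance at first. From 70 kb, the first distance with 3 or more such pairs, to 200 kb, the slope of log10 signal on log10 distance was -0.263 and -0.0630 across the rDNA. Over the same distances it was -1.27 ± 0.0321 between the centromere and the rDNA, -1.29 ± 0.0475 beyond it and -1.47 ± 0.00623 for same-arm pairs of other chromosomes (SD, n = 2). The 13 other long arms ranged from -1.59 on the left arm of X to -1.34 on the right arm of IV, all steeper than across the rDNA. From 70 to 300 kb the slope across the rDNA was -0.490 ± 0.172, still shallower than on any of these arms, where the shallowest was -1.16 on the right arm of XV.
Both sides of XII also decayed less steeply than other arms over 20 to 200 kb, with slopes of -1.43 ± 0.0146 between the centromere and the rDNA and -1.49 ± 0.0260 beyond it (SD, n = 2). The other long arms ranged from -1.75 to -1.57. The left arm, over 20 to 110 kb, had -1.88 ± 0.0738.

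Read as a distance, the pairs across the rDNA had the signal of pairs that lie much further apart elsewhere. Those at 50 to 90 kb (76.7 kb on average) had the signal that same-arm pairs of other chromosomes have at 282 ± 28.8 kb (SD, n = 2). Those at 100 to 140 kb matched 266 ± 5.70 kb, those at 150 to 190 kb 288 ± 4.45 kb, and those at 300 to 390 kb 512 ± 60.6 kb, or 834 ± 83.1 kb where pairs across the centromere of other chromosomes are counted too. Up to 190 kb the equivalent distance therefore hardly depended on the distance along the reference. Pairs at 50 to 90 kb within one side matched 58.3 kb between the centromere and the rDNA and 58.1 kb beyond it, closer than their own mean of 69.1 and 69.6 kb.
Against the mean signal between different chromosomes, pairs across the rDNA were 2.38 times as high at 50 to 90 kb, 1.63 times at 200 to 290 kb, 1.11 times at 400 to 490 kb, 0.973 times at 500 to 590 kb and 0.759 times at 600 to 920 kb. Past 500 kb, signal across the rDNA was thus no higher than the mean over all pairs of different chromosomes. At 500 to 590 kb it was 1.46 per pair, whereas bins before and beyond the rDNA averaged 1.44 and 1.26 with other chromosomes. Same-arm pairs of other chromosomes had 1.93 at 500 to 590 kb and 1.60 at 600 to 920 kb, against 1.498 between chromosomes. The left arm met the stretch beyond the rDNA at 0.365 ± 0.00765 times the mean between chromosomes (SD, n = 2).

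**Figure D3:**
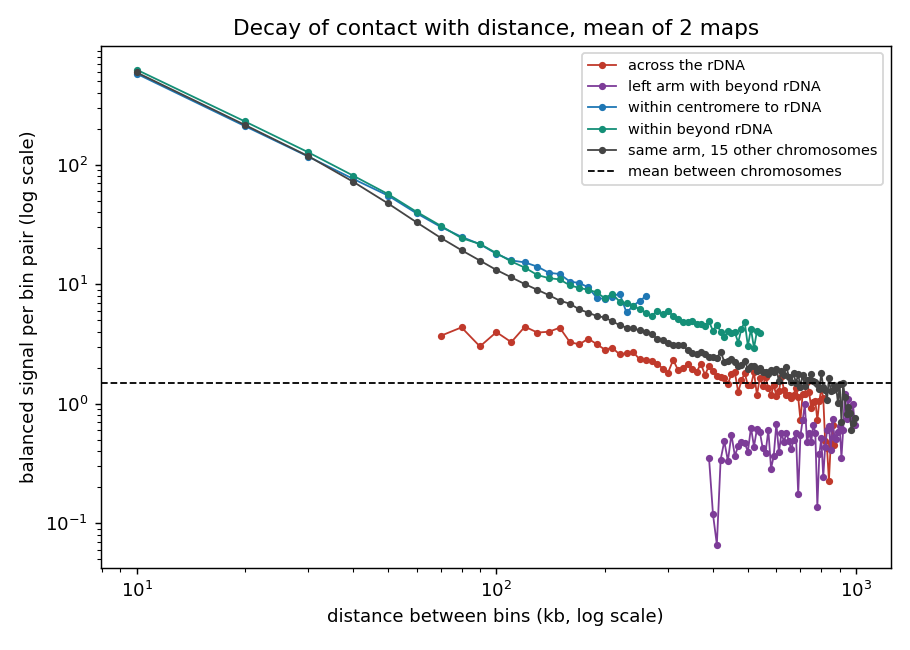
Mean balanced signal per bin pair (vertical axis, log scale) against distance between bins in kb (horizontal axis, log scale), mean of both maps; the dashed line is the mean between chromosomes. The curve across the rDNA starts near the level that other arms reach at 282 kb and stays almost flat to 150 kb, and the left arm with the stretch beyond the rDNA runs below the dashed line.

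Within the stretch from the centromere to the rDNA, contact with the far side depended on where a bin lay. It was lowest beside CEN12, highest in the middle and low again beside the rDNA. Over the 27 bins at least 20 kb from the rDNA the O/E with the stretch beyond ranged from 0.120 to 0.889, with a median of 0.636. The lowest bin, 160001 to 170000, holds SSL1, a subunit of the transcription and repair factor TFIIH, and NSE1, of the Smc5-Smc6 complex. It had 0.0666 and 0.173, from 30 contacts where 275.6 were expected. The next lowest bins were those of GAT3 and PPR1, a regulator of pyrimidine synthesis (170001 to 180000, 0.189 ± 0.0137), and of PSR2 and YEH2 (180001 to 190000, 0.242 ± 0.0210).
The highest bins lay in the middle of the stretch. The bin of ALT1, an alanine transaminase, and SUL2, a sulfate permease (320001 to 330000), had 0.922 and 0.857, from 243 contacts where 291.1 were expected. The bin of REA1 and AHP1, a peroxiredoxin (360001 to 370000), had 0.847 and 0.801, and that of GAL2, the galactose permease (290001 to 300000), had 0.678 and 0.861. Even these bins stayed below 1, although some other arms did so too at like distances from their centromere.

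Other loci of this stretch lay between these extremes. SMC4, a condensin subunit, had an O/E of 0.632 ± 0.0408 with the far side, CDC45, a part of the replicative helicase, 0.611 ± 0.0307, and HOG1, the osmotic stress kinase, 0.732 ± 0.0555 (SD, n = 2). ACS2, nearest to the rDNA, had 0.420 ± 0.00164. From 410001 to 450000 the 4 bins before the rDNA ran from 0.548 to 0.420, whereas their O/E with the own side ran from 1.60 to 2.30, so loss on one side of the array and gain on the other went together along the chromosome. These 4 bins had 1.99 ± 0.0255 with the rest of their stretch (100 pairs, 9179 contacts against 5999 expected), 1.96 without balancing and 3.04 with a balance from contacts between chromosomes only. The ACS2 bin also had 1.33 ± 0.125 with the left arm, above every other bin between 380001 and 440000.

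**Figure D4:**
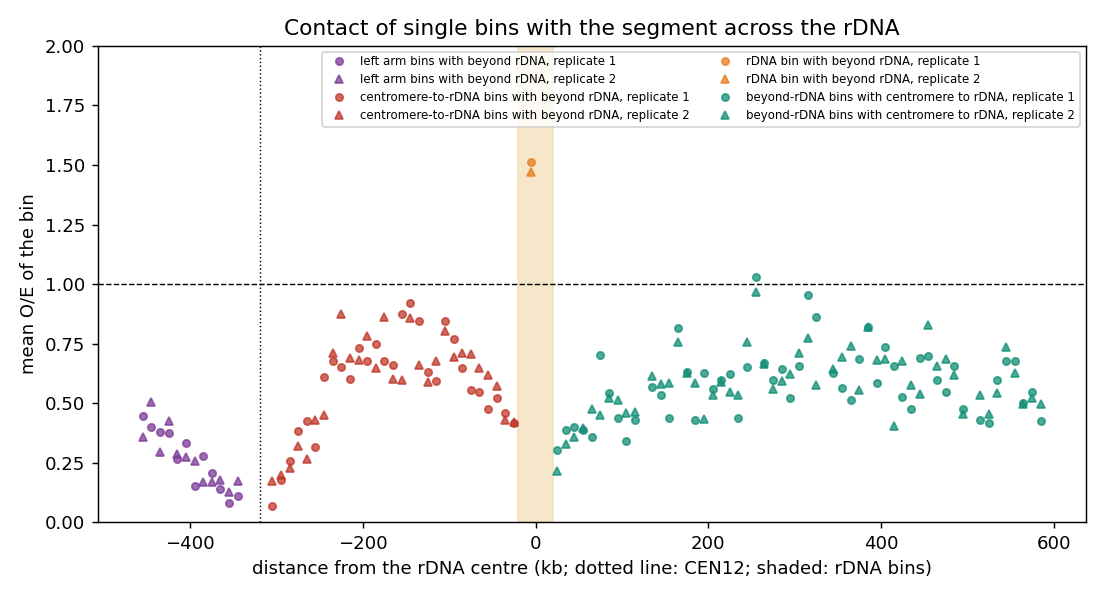
Mean O/E of each kept bin with all bins of the segment across the rDNA (vertical axis) against its distance from the rDNA centre in kb (horizontal axis), circles for replicate 1 and triangles for replicate 2. Left arm bins and bins between the centromere and the rDNA form a trough at CEN12 (dotted line) with the lowest at 0.104 and 0.120, bins on both sides of the rDNA (shaded) dip, and the kept rDNA bin lies near 1.49.

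Beyond the rDNA the profile was flatter. Over the 52 bins at least 20 kb from the rDNA, O/E with the stretch before it ranged from 0.380 to 0.997 around a median of 0.587. The first bin after the array, 490001 to 500000, lay below all of these with 0.301 and 0.215, and so did 500001 to 510000 with 0.387 and 0.328 in the maps and a mean of 0.358. The lowest of the 52 were the bins of SAM1, an S-adenosylmethionine synthetase, and SWI6, a cell cycle transcription cofactor (510001 to 520000, 0.380 ± 0.0290), of RPL37A, a ribosomal protein (520001 to 530000, 0.393 ± 0.00610), and of CDC123 and CPR6 (570001 to 580000, 0.399 ± 0.0830). The highest bin was that of GSP1, the yeast Ran GTPase, and SEC72 (720001 to 730000), with 1.03 and 0.965 from 191 contacts where 184.9 were expected. It was followed by the bins of NMA1 and CHS5 (780001 to 790000, 0.863 ± 0.128) and of SSQ1, a mitochondrial Hsp70, and RPS22B (850001 to 860000, 0.819 ± 0.000254).
Of the fixed loci, NOP56, which encodes a core protein of nucleolar snoRNPs, had 0.576 ± 0.177, and TUB4, which encodes gamma-tubulin of the spindle pole body, 0.475 ± 0.0518 (SD, n = 2). CDC42, the polarity GTPase, had 0.590 ± 0.0330, MET17, a gene of sulfur assimilation, 0.668 ± 0.00311, and CDC25, the exchange factor of Ras, 0.619 ± 0.0366. Among loci further along, NUP2, a nucleoporin, had 0.718 ± 0.201, ILV5, of branched-chain amino acid synthesis, 0.627 ± 0.159, SMC6 0.530 ± 0.179, SIR3, of silent chromatin, 0.652 ± 0.0348, and HMG2, an HMG-CoA reductase, 0.498 ± 0.00309. TUB4 and HMG2 lay below CDC42, SIR3 and MET17 in both maps, but on few contacts. HMG2 had 64 where 128.1 were expected, and SIR3 69 where 106.5 were. The SD of 2 maps need not hold counting error, so this order is not established. The maps differed most for NOP56, NUP2, ILV5 and SMC6, whose values cannot be ordered either.

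Single pairs across the rDNA with more contact than expected were few and rested on few contacts. The 5 highest with an O/E over 1 in both maps had means of 2.11 to 2.40 from 6 to 13 contacts. The highest joined the ALT1 and SUL2 bin to the GSP1 and SEC72 bin 400 kb away, with 1.35 and 3.46 from 13 contacts where 5.57 were expected (95% interval of the ratio 1.24 to 3.99). The others joined 240001 to 250000 with 860001 to 870000, 320001 to 330000 with 820001 to 830000, 360001 to 370000 with 690001 to 700000, and 390001 to 400000 with 1010001 to 1020000. The intervals of 3 of the 5 include 1. Since the 5 were picked from 1566 pairs by the same values, no interval here shows that a pair exceeds the expectation. None of the 5 pairs shares a 50-base word in the reference, so repeated sequence of that kind is not present in both bins.

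Blocks of bins gave the same picture with more contacts behind each value. The first stretch after CEN12, 150 to 250 kb, had an O/E of 0.335 ± 0.00594 with 490 to 690 kb, 0.459 ± 0.0221 with 690 to 890 kb and 0.410 ± 0.0410 with the last block to the end (SD, n = 2). The middle, 250 to 350 kb, had 0.651 ± 0.0440, 0.780 ± 0.0390 and 0.719 ± 0.00207 with the same blocks. The part next to the rDNA, 350 to 450 kb, had 0.495 ± 0.0390, 0.741 ± 0.0258 and 0.577 ± 0.0266. In both maps each of these stretches had its highest value with the middle block of the far side, 690 to 890 kb. Against the last block the 95% count intervals overlap for 150 to 250 kb (0.409 to 0.514 and 0.353 to 0.468). They also do for 250 to 350 kb (0.715 to 0.828 and 0.664 to 0.796), so that order is not established there.
Within the far side no pair of blocks was low, with O/E from 1.14 to 1.51. The highest was 490 to 690 kb with 890 kb to the end, the most distant pair of blocks.

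The left arm was separated from the stretch beyond the rDNA more deeply than the stretch next to it. At 200 to 920 kb, 371 of its 574 pairs with that stretch (64.6%) had an O/E under 0.5 in both maps, against 13.3% of pairs across the centromere of other chromosomes at those distances. Only 4 of the 574 were over 1 in both maps (0.697%), against 29.8%. Distances were not matched here either, with 376 of the 574 pairs at 600 to 920 kb against 4397 of 14002 on other chromosomes. By distance the O/E was 0.0874 ± 0.0555 at 300 to 390 kb, from 4 contacts, 0.157 ± 0.00989 at 400 to 490 kb, 0.203 ± 0.00649 at 500 to 590 kb and 0.252 ± 0.0189 at 600 to 920 kb (SD, n = 2). Pairs across the centromere on other chromosomes had 1.06 at 400 to 490 kb and 1.06 at 600 to 920 kb.
SSA2, which encodes an Hsp70 chaperone, had 51 contacts with the stretch beyond the rDNA where 280.9 were expected, an O/E of 0.207 and 0.167. HSP104, which encodes a disaggregase, had 41 where 188.5 were expected. Contact with the far side grew towards the left end: the bin 110001 to 120000 had 0.104 ± 0.0337 and the bin 20001 to 30000 0.452 ± 0.0742. With the terminal block, from 890 kb, the left arm had 0.358 ± 0.00907, above its 0.195 ± 0.0180 with 490 to 690 kb. The SIR3 bin near the right end had the highest value with the left arm among the fixed loci beyond the rDNA that passed the filter, 0.594 ± 0.138.
Across the centromere the left arm met the stretch before the rDNA at O/E of 0.910 and 0.923 (348 pairs). It had 1.16 at 50 to 90 kb, 1.07 at 100 to 140 kb and 0.780 at 200 to 290 kb, and pairs across the centromere on other chromosomes had 1.11, 1.25 and 1.16 at these distances.

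Low contact of bins next to a centromere with the far part of an arm was shared by other chromosomes, and the low contact of bins further out was not. The 4 kept bins within 50 kb of CEN12 on the right arm had 0.226 ± 0.00525 with bins past 340 kb (SD, n = 2). The same positions on 13 other long arms had 0.254 on the right arm of XV to 0.534 on the right arm of VIII, with a median of 0.383. At 50 to 100 kb from the centromere XII had 0.541 ± 0.00741, and 2 of the 13 arms were lower. At 100 to 200 kb XII had 0.717 ± 0.0286 and the lowest other arm, the left arm of X, 0.843. At 200 to 300 kb XII had 0.606 ± 0.0307, whereas the other arms ran from 0.876 to 1.33 with a median of 1.10. The median over other arms thus kept growing with distance from the centromere, and the value of XII turned down before the rDNA.
On the opposite arm, bins at 100 to 150 kb from CEN12 had 0.397 ± 0.00311 with bins past 340 kb, and the other chromosomes had 0.607 to 1.42. All 3 classes of opposite-arm bins of XII lay below the same classes of each of the 13 arms.

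The same layout, bins up to 300 kb from the centromere with bins past 340 kb, set the rDNA gap against other arms as a whole. XII had an O/E of 0.580 ± 0.00272 across the gap, and the 13 other arms had 0.790 ± 0.0263 on the left arm of X to 1.01 on the right arm of VIII (SD, n = 2). For pairs up to 190 kb apart, XII had 0.421 ± 0.0145 and the other arms 0.884 to 1.18. Divided by same-side pairs at equal distance, XII had 0.369 ± 0.00743, followed by the right arms of IV at 0.749 and XV at 0.871, and the highest was the right arm of V at 1.84. The distances that enter this ratio differ between arms. XII has 54 bins past the gap, the right arm of IV 69 and that of V only 8, so ratios of shorter arms are not like for like with XII. The order of XII against all 13 arms held without balancing, where XII had 0.381 and the lowest other arm 0.738, with a balance from contacts between chromosomes only (0.364 and 0.719) and with no filter on bins (0.366 and 0.735).

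**Figure D5:**
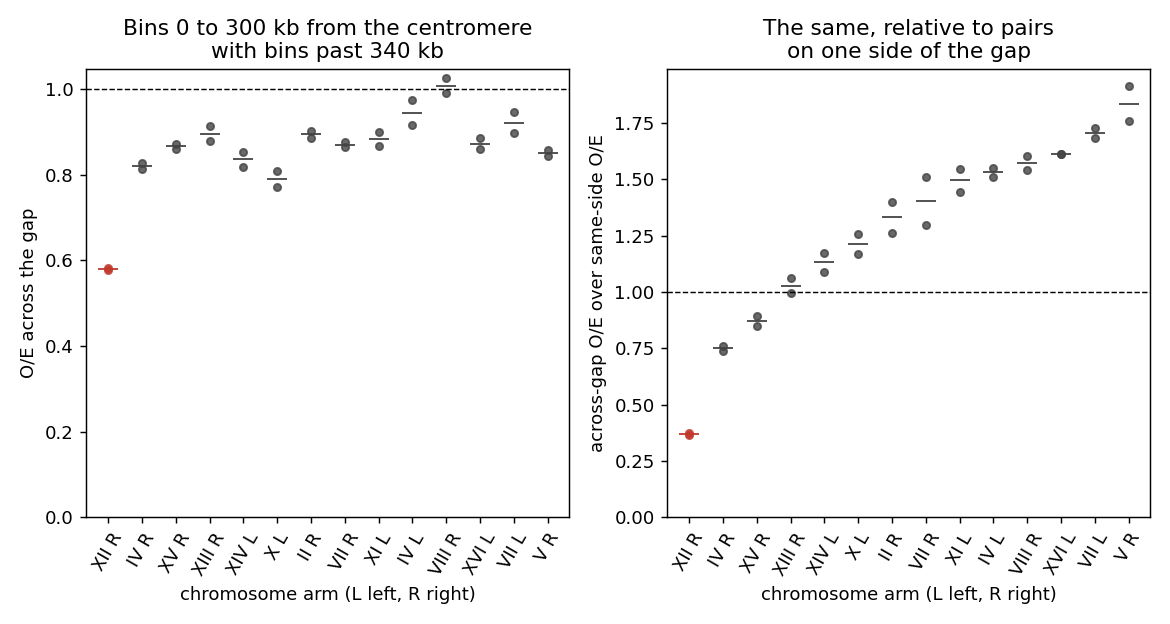
Left, O/E of bins 0 to 300 kb from the centromere with bins past 340 kb on the right arm of XII (red) and on 13 other long arms (grey); right, the same divided by the O/E of pairs on one side of the gap at equal distances. Dots are the maps and bars their mean; XII lies at 0.580 and 0.369, below every other arm in both panels.

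In a window of 100 kb on each side of a position, with the 40 kb of the rDNA bins left out as a gap, the pairs that span the rDNA had a mean O/E of 0.388 and 0.364 (64 pairs). At the 72 positions of XII whose windows do not reach the rDNA bins, spanning pairs had 0.605 at the lowest, near CEN12, and 1.92 at the highest. Positions closer to the array share pairs with it, such as 480000 with 0.375 and 450000 with 0.458. Among 948 positions of other chromosomes the median was 1.01 and the lowest 0.437, on XVI, 74.0 kb from its centromere. Away from centromeres the lowest was 0.482 at 500000 on XV, beside the LacO array of the strain, and 0 of the 948 lay below the rDNA.
The rank of the rDNA among these positions depended on balancing and on the window. Without balancing the rDNA had 0.433 and 3 of 948 positions were lower. With a balance from contacts between chromosomes only it had 0.626, and 163 of 948 were lower. With 200 kb on each side it had 0.546 and 31 of 983 positions were lower, of which 29 lay within the window of a centromere and 12 on XV. With both that window and that balance it had 0.781, and 306 of 983 were lower.

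The rDNA bins themselves were sparsely measured. The bin 470001 to 480000, with ASP3-2 and RDN5-3, had no value. The bin 450001 to 460000, with RDN37-1 and RDN5-1, held 726 and 685 contacts, and 480001 to 490000, with RDN5-4 to RDN5-6, held 305 and 289. The median bin of XII outside the rDNA held 4991 and 4672.5. Cutting sites were not scarce, with 26, 28, 42 and 41 DpnII sites in the 4 bins from left to right against a median of 28.5 in other XII bins. Reads from identical repeats cannot be placed at one copy, and the share of reads lost for that reason was not measured.
The only rDNA bin that passed the filter, 460001 to 470000, with RDN37-2 and RDN5-2, held 3717 and 4017 contacts. It had an O/E of 2.08 and 1.82 with the stretch before the array, 1.51 and 1.47 with the stretch beyond and 1.43 and 1.46 with the left arm, and 1.75 ± 0.0305 times the mean signal with other chromosomes (SD, n = 2). Only 32.2% ± 0.739 of its contacts before balancing lay within XII, against 63.4% for all of XII. Its values with the stretch beyond turned to 0.942 with a balance from contacts between chromosomes only and to 0.871 as summed signal over summed expectation, and that with the left arm to 0.756 with that balance, so no direction can be given for these. With the stretch before the array it stayed above 1, at 1.11 and 1.05 under the same settings. Its 1214 contacts there were close to the 1171.9 expected, so little can be said of that direction either.
The O/E of this bin grew with distance. With the stretch before the array its O/E was 0.631 at 20 to 40 kb and 2.52 at 200 to 300 kb, and with the stretch beyond 0.598 at 50 to 90 kb and 1.87 at 310 to 580 kb. These values rest on the deposited balance, and the split by distance was not made under other balances.
The bins at the edges of the array had opposite sides. The first, with RDN37-1, had 3.12 and 2.78 with the stretch before the array and 0.537 and 0.451 with the stretch beyond. The last, with RDN5-6, had 0.138 and 0.844 with the stretch before it, from 11 contacts where 41.9 were expected, and 2.64 and 2.94 with the stretch beyond, from 357 contacts where 160.6 were expected. Both failed the filter. The first has values with 17.0% and 17.7% of its partners on other chromosomes in the maps, and the last with 9.72% and 8.44%. These levels are therefore rough.

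More of the contacts stayed on XII beyond the rDNA than before it. Shares were taken from contacts before balancing, pooled over all bins with a value in a segment, without pairs of a bin with itself. The share within XII was 67.2% ± 0.0602 beyond the rDNA, 61.9% ± 0.0246 between the centromere and the rDNA and 53.8% ± 0.0606 on the left arm (SD, n = 2). Whole chromosomes other than XII had 55.0% to 65.6%, with IV, the longest, at the top. The segments differ in length, with 58, 30 and 14 bins in that order, and in distance from the centromere. Stretches of other chromosomes matched for these were not compared, so the order cannot be tied to the rDNA. Balanced signal with other chromosomes per pair of kept bins averaged 1.26 ± 0.0651 beyond the rDNA, 1.44 ± 0.0729 before it and 1.65 ± 0.0855 on the left arm, against 1.498 ± 0.0797 over all kept bins. The order was the same in both maps, with 1.30, 1.49, 1.71 and 1.55 in replicate 1 and 1.21, 1.39, 1.58 and 1.44 in replicate 2. Signal scales with the contacts of a map, so the SD holds their difference in depth.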

How the data were processed

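Cells were fixed with formaldehyde, chromatin was cut with DpnII, and ligated ends were sequenced. Per the labels and the study's methods the authors aligned reads to sacCer3 with HiC-Pro. Each deposited value is the signal of a bin pair at 10 kb after iterative correction (ICE) of its own library, which gives every bin the same total. How reads were filtered is not given in the sources used here. The methods call sequencing replicates biological. Maps of 2 of the 6 samples were used, and the other 4 were not analysed here.

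Whole contacts were recovered from the signal (100% of values within 0.01 of a whole number). Bins were kept where they held values in both maps and the share of bins of other chromosomes they had a value with, as the mean of both maps, was at least 0.5. Intervals are exact Poisson 95% intervals and cover counting error only. The pipeline was tested on simulated data. Scripts used Python 3.11.15, NumPy 2.4.6 and SciPy 1.17.1, and gene positions and sequences come from the R64 annotation.

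Members, loci and alternatives were chosen with earlier results of these data known. Named loci are a list of genes, CEN12, ends and rDNA genes on XII, the 3 highest and 3 lowest bins of each side at least 20 kb from the rDNA, and the 5 highest pairs. Balances tried on rDNA bins, local windows, single arms and bins beside the rDNA and CEN12, the slopes from 70 kb and the classes by distance from the centromere, were chosen after seeing the data. A locus of that list and a flanking sequence are not reported here.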

Additional observations from a re-analysis of the deposited data

Results flagged for a closer look

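The 3 bins around CEN12 that the filter on bins left out (130001 to 140000, 140001 to 150000 and 150001 to 160000) hold values that the segment comparisons above leave out. The shares of contacts within XII and the settings with no filter include these bins. With the stretch beyond the rDNA the O/E of these 3 bins was 0.0818 ± 0.0253 (SD, n = 2), at 0.0639 and 0.0996 in the maps. They had 55 contacts over 162 pairs, where 706.3 were expected (95% interval of the ratio 0.0587 to 0.101), which is above 0 contacts and below the level of every kept bin of the left arm and of the stretch between the centromere and the rDNA. The bin of CEN12 had 0.0857 ± 0.0431 and that of DNM1, a dynamin-related gene of mitochondrial fission, 0.0803 ± 0.0426.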

How the results depend on the processing

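Of 133 values under alternatives, 66 stayed within the spread between maps or within 1.5 times for a share, 63 moved and 4 crossed 1. Apart from the share, leaving out 1 of the 2 maps always gives a value within their SD. Those of the 66 were therefore fixed in advance, and most of the other alternatives moved. The ratio of pairs across the rDNA to same-side pairs ranged from 0.353 (median over pairs) to 0.383 (rDNA widened by 1 bin on each side), with 0.381 without balancing. The O/E across the rDNA was 0.598 with an expectation from all 16 chromosomes and 0.683 from same-arm pairs. It was 0.544 without balancing, 0.708 with a balance from contacts between chromosomes only, 0.592 with the rDNA widened, 0.502 as a median and 0.538 as summed signal over summed expectation. For the left arm with the stretch beyond, these settings gave 0.283, 0.436, 0.241, 0.260, 0.270, 0 and 0.254 in the same order, and 0.245 with no filter on bins. For the left arm with the stretch before the rDNA they gave 0.907, 0.989, 0.818, 0.905, 0.902, 0.861 and 0.977, and 0.883 with no filter. Between the centromere and the rDNA they gave 1.26, 1.32, 1.19, 1.61, 1.20, 1.13 and 1.03, with 1.27 for no filter and 1.27 without pairs that share a 50-base word. Beyond the rDNA the values were 1.46 from same-arm pairs, 1.28 without balancing, 1.89 with the balance between chromosomes, 1.27 as a median, 1.11 as a sum and 1.40 with no filter. Within the left arm they were 0.873 without balancing, 0.856 with that balance, 0.893 with no filter and 1.02 as a sum, which crossed 1. With 250 to 290 kb as the gap on other arms, those arms ranged from 0.749 to 0.930. From 50 to 300 kb (from 70 kb across the rDNA) slopes were -0.490 across the rDNA, -1.24 on either side of it and -1.42 on other chromosomes. The local value at the rDNA was 0.546 with 200 kb windows, 0.626 with the balance between chromosomes and 0.433 without balancing. For the rDNA bins, no filter gave 1.61 with the stretch beyond and 1.09 with the left arm. Without balancing the values were 1.17 with the stretch beyond, 1.51 with the stretch before and 1.17 with the left arm. The balance between chromosomes gave 0.942, 1.11 and 0.756 in that order, and sums gave 0.871 beyond and 1.05 before. The share of pairs across the rDNA under 0.5, 28.5% in both maps, was 45.8% at a limit of 0.7 and 49.4% to 50.8% in single maps, which fewer maps allow by construction. The cause of the other changes was not tested.

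No paired analysis was possible because maps of only 1 group were analysed here. Depth limits single pairs across the rDNA, where a few contacts decide a value, and the median of 0 for the left arm means that most of its pairs with the stretch beyond held no contact in a map.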
